A study of Mus musculus with 6 samples.

Results

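The expression of 10 genes that build or carry the sugar ligands of selectins and the sialic acid caps of T cell glycoproteins was examined in induced T (iT) cells. They were chosen by name from their known biochemistry: the sialyltransferases St3gal1, St3gal2, St3gal4, St3gal6 and St6gal1, the branching enzymes Gcnt1 and Gcnt2, the galactosyltransferase B4galt1, the fucosyltransferase Fut7 and the glycoprotein Selplg. All 10 were present among the 23420 gene entries of the expression table, and 9 of the 10 were among the 10476 genes tested. Gcnt2 was below the filter on low values, which required at least 1 TPM (a transcript level scaled for length and to a fixed library total) in 3 or more of the 6 libraries.

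The iT cells came from C57BL/6 embryonic stem cells of selected clones that carried a doxycycline-inducible Runx1-p2a-Hoxa9 cassette at the Rosa26 locus (iR9). Hematopoietic progenitors made from these cells in culture were transplanted into irradiated B-NDG mice, which have the NOD background, the scid mutation of Prkdc and no functional Il2rg and so form no T, B or NK cells of their own. Single-positive cells of donor type (CD45.2+) were then sorted from spleen as CD4+ or CD8+ after exclusion of lineage markers that included Ter119 and CD11b, in aliquots of 1000 cells, and RNA was sequenced from 3 CD4SP and 3 CD8SP libraries. Both populations thus share the cassette, the donor line and the host, and no natural T cells were compared here. The study describes each library as a biological replicate, and neither it nor the labels say whether the 3 libraries of a population came from separate mice, so the p-values measure the spread between these samples.

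Selectins are adhesion molecules of endothelium, platelets and leukocytes that bind sialylated and fucosylated sugars, chiefly sialyl Lewis x, on carrier proteins of the passing cell. A T cell builds this sugar in the Golgi by a series of transferases: a branch is started on an O-glycan, galactose is added, sialic acid is placed on the galactose in an α2,3 linkage, and fucose is added last. Sialic acid in the α2,6 linkage is a separate cap that is not a selectin ligand, and effector and memory T cells are known to change both kinds of cap as well as the branching of their O-glycans.

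The labels of the sort were checked on 8 T cell genes. Cd4 was at 279 to 331 TPM in CD4SP iT cells, against 0 to 0.104 TPM in CD8SP, and Cd8a was at 0.319 to 2.93 TPM in CD4SP iT cells, against 1038 to 1161 TPM in CD8SP. Cd8b1 was not near 0 in CD4SP, at 36.0, 24.6 and 24.3 TPM, against 2353, 2401 and 2197 TPM in CD8SP. Of 8 myeloid markers S100a8, S100a9 and Mpo were listed at 0 in every library, with sums of 17.7 to 32.9 TPM in CD4SP iT cells, against 20.7 to 24.2 TPM in CD8SP. Single myeloid markers separated in opposite directions, with Lyz2 at 30.9, 17.1 and 18.3 TPM in CD4SP against 8.33, 6.87 and 3.64 TPM in CD8SP, and Cd68 at 1.45, 0.596 and 6.59 TPM in CD4SP against 15.5, 13.5 and 17.5 TPM in CD8SP. The part of myeloid cells in the levels of the members was not tested. The sums were 0 to 0.129 TPM for erythroid markers and 1.79 to 6.68 TPM for platelet and endothelial markers. CD4SP replicate 2 stood apart in 1 gene looked up after its values were seen, Foxp3, the factor of regulatory T cells, at 142 TPM, 6.56 TPM and 167 TPM in the CD4SP libraries. Without that library 5 members were still past an adjusted p of 0.05 and 2-fold, the rule described next, with log2 fold changes (CD4SP minus CD8SP) of St6gal1 at 2.29, St3gal2 at 2.35, Gcnt1 at 1.45, St3gal1 at 1.26 and St3gal6 at -1.37. That library also differed over the whole table. Ribosomal protein genes made up 28.8% of its TPM, against 24.1 and 24.3% in the other CD4SP libraries. Without it 3258 genes were under an adjusted p of 0.05 (limma), against 2183 with all libraries. Leaving out any other library gave 1056 to 1308. Correlations of log2 levels across genes were 0.955 to 0.987 within a population and 0.917 to 0.937 between populations.

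Of the 9 members tested, 5 differed between the populations by more than 2-fold at an adjusted p under 0.05, which is the rule for a call used throughout. St6gal1, St3gal2, Gcnt1 and St3gal1 were higher in CD4SP iT cells, and St3gal6 was higher in CD8SP iT cells. St3gal4, B4galt1, Fut7 and Selplg did not pass. For comparison, the rule called 1019 of all genes tested (9.73%). It called 830 in the CD4SP direction (7.92%) and 189 in the CD8SP direction (1.8%). With median-of-ratios scaling the corresponding counts over all genes were 489 and 300, and with quantile normalization 442 and 334. On the adjusted p alone the same 5 members passed, against 20.8% of all genes. The median log2 fold change (CD4SP minus CD8SP) was 0.47 over the 9 members and 0.28 over all genes, so the whole table was shifted towards CD4SP, a shift that was 0.00017 after median-of-ratios scaling, -0.019 after quantile normalization and 0.15 once ribosomal protein genes were removed. The members were picked with results of these data known, so these counts describe the members and are not evidence that the group as a whole differs from other genes. St3gal2 is the only tested member that passed the filter on low values through a single population, so its call is no independent support. Of the other 8 members 4 were called (50%). Among all genes at 1 TPM or more in all 3 libraries of each population, 679 of 9148 were called (7.42%). In 7 of the 9 members tested all libraries of one population lay above all libraries of the other, against 43.2% of all genes tested.

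**Figure D1:**
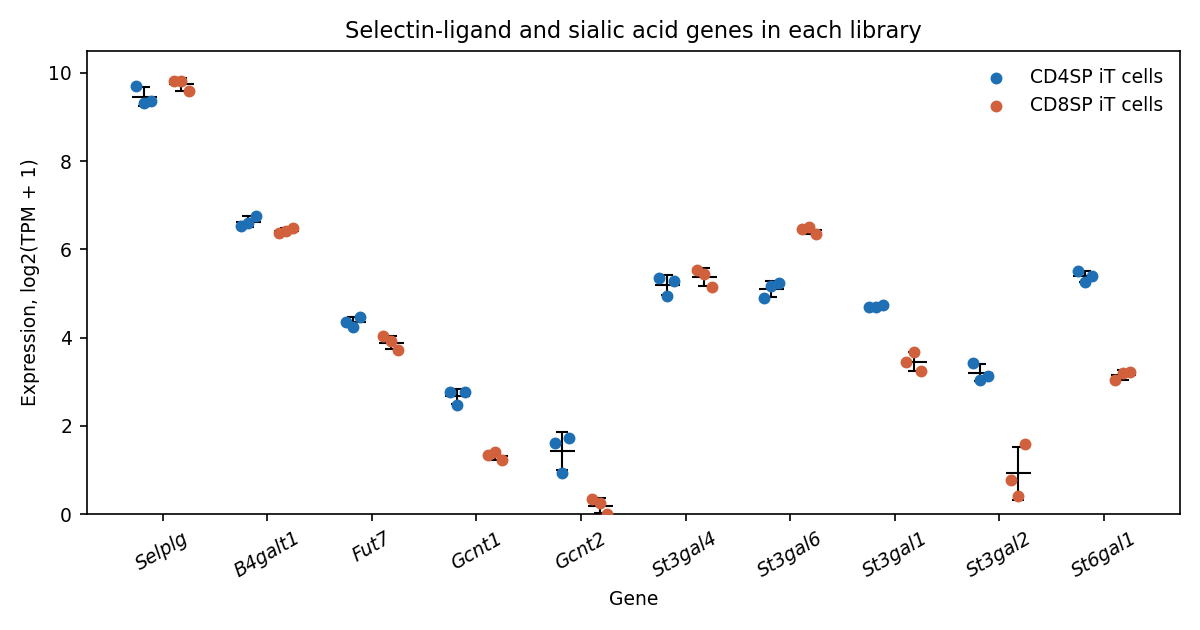
Level as log2(TPM + 1) of each of the 10 members, one point per library, with the mean and SD of the 3 libraries of each population as black bars. The populations lie apart for St6gal1, St3gal1, St3gal2, St3gal6, Gcnt1, Gcnt2, B4galt1 and Fut7 and overlap for St3gal4 and Selplg. Of all genes tested 43.2% lie apart in this way.

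The bases before the annotated starts of 3 called members are shown, because they include changes in both directions. Windows of 250 bases were taken from RefSeq on the GRCm38.p6 build, which is the mm10 genome, and 7 of the 10 members were matched to 15 of the 32851 windows of the table. Shown is the window nearest to the 5′ end of the gene in the GENCODE annotation, at 0 bases for St6gal1, 10 for St3gal6 and 0 for Gcnt1. Capitals mark matches to letters of motifs searched on both strands. St6gal1 lies at chr16:23224490-23224739 on the plus strand, St3gal6 at chr16:58524254-58524503 on the minus strand and Gcnt1 at chr19:17372845-17373094 on the minus strand, each written 5′ to 3′ in the direction of the gene.
St6gal1: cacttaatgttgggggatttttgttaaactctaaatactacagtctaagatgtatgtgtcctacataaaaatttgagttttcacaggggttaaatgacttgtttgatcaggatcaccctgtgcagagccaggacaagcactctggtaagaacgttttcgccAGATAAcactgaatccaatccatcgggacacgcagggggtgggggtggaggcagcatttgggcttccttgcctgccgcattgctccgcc
St3gal6: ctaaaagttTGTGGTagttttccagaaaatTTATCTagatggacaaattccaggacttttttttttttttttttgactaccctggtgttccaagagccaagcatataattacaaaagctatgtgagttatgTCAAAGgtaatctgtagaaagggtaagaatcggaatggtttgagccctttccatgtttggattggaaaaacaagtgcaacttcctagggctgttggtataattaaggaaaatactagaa
Gcnt1: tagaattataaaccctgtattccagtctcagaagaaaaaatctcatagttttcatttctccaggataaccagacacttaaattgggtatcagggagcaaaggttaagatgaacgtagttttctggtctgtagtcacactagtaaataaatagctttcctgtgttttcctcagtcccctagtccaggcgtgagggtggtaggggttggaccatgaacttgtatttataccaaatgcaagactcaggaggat
The St6gal1 window held the GATA letters AGATAA at 89 bases before the start. The St3gal6 window held the RUNX letters TGTGGT at 241 bases before the start, the GATA letters on the opposite strand at 220 bases and the TCF or LEF letters CTTTGA on the opposite strand at 119 bases. The Gcnt1 window held none of the 6 motifs searched, which says only that these letters are not in it. The GATA letters occurred in 9.99% of all windows, RUNX in 14% and TCF or LEF in 13.8%. The other 3 motifs were T-box (GGTGTGA, 3.33% of windows), ETS (CCGGAA, 12%) and KLF or SP (GGGCGG, 32.7%). Over the 15 windows of the members the RUNX letters were in 3, the GATA letters in 3, TCF or LEF in 2, ETS in 2, KLF or SP in 5 and T-box in 0. A match is a description of the letters and not a binding site.

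The first group of members places sialic acid. St6gal1 makes the α2,6 linkage on the galactose of N-glycans (chromosome 16, 23224740 to 23360350, plus strand, protein coding). Its level was 44.6, 37.4 and 40.8 TPM in the CD4SP libraries and 7.19, 8.22 and 8.32 TPM in the CD8SP libraries. The lowest CD4SP library was thus far above the highest CD8SP library. Means were 40.9 ± 3.59 TPM and 7.91 ± 0.626 TPM (SD, n = 3 each), a ratio of 5.17. The log2 fold change was 2.23 with a standard error of 0.163 (95% interval 1.86 to 2.61, limma adjusted p = 8.5e-05). This was the smallest adjusted p among the members, and the fold change lay between 1.90 and 2.36 over the 15 alternatives. A 201-base stretch of the gene is shared with BC106179 on the opposite strand, which had no entry in the table. Since the counting is not stated to use strand, reads of the pair cannot be told apart. B cells are also known for high St6gal1, and of 6 B cell markers Ms4a1 and Pax5 were listed at 0 in all libraries. The summed level was 16.2 to 22.7 TPM in CD4SP iT cells, against 21.3 to 24.5 TPM in CD8SP, most of it from Cd79b (10.9 to 17.4 TPM against 18.5 to 21.6 TPM). Cd79a went the other way, at 2.23, 3.56 and 2.63 TPM in CD4SP against 1.73, 1.58 and 1.52 TPM in CD8SP, as did Ebf1, at 0.345, 0.294 and 0.434 TPM in CD4SP and listed at 0 in CD8SP. The part of B cells in the level of St6gal1 was not tested.

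St3gal1 caps the simple core 1 O-glycan with α2,3-linked sialic acid, on the same acceptor that Gcnt1 branches (chromosome 15, 67102875 to 67176830, minus strand). It was at 24.8, 24.7 and 25.6 TPM in CD4SP iT cells, against 9.96, 11.7 and 8.48 TPM in CD8SP iT cells. The CD4SP libraries lay within a narrow band, and no CD8SP library reached them. The mean was 25.0 ± 0.505 TPM against 10.04 ± 1.60 TPM (n = 3 each), and the log2 fold change was 1.25 (standard error 0.176, 95% interval 0.85 to 1.65, limma adjusted p = 0.00234). Scaling moved it below the 2-fold limit, to 0.96 with median-of-ratios and 0.91 with quantile normalization, while the adjusted p stayed under 0.05.

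St3gal2 makes the same linkage on O-glycans and on gangliosides (chromosome 8, 110919922 to 110972480, plus strand). CD4SP libraries held 9.70, 7.27 and 7.76 TPM, whereas CD8SP libraries held 0.705, 0.331 and 1.998 TPM. All CD4SP values were above all CD8SP values, and the CD8SP values ranged widely around 1 TPM. The log2 fold change was 2.28 (standard error 0.332, 95% interval 1.52 to 3.04, limma adjusted p = 0.00277), which differed from that of St6gal1 by less than either standard error. With 1 CD8SP library at 1 TPM or more the gene passed the filter on low values through its CD4SP libraries, and in the fit of all genes without that filter its adjusted p was 0.00704 (limma). As the values were compared as log2(TPM + 1), this understates the change of a gene at so low a level. Over the 15 alternatives the value ran from 1.95 to 3.20. The call was kept in each, but as the gene entered through CD4SP, where it is high, this is no support for it. The 3 tested genes whose log2 levels followed St3gal2 most closely over the 6 libraries were Myo9a (Pearson r = 0.999), Rspry1 (0.997) and Mxi1 (0.997), a description over points that share the gap between the 2 populations.

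St3gal6 acts on the galactose of lactosamine chains and, with St3gal4, is known to make the sialylated precursor of sialyl Lewis x (chromosome 16, 58468125 to 58524243, minus strand). It was the only member called higher in CD8SP: 87.5, 89.9 and 79.9 TPM there, against 28.97, 35.03 and 36.7 TPM in CD4SP. The populations were well apart, with 85.8 ± 5.23 TPM and 33.6 ± 4.05 TPM as means (n = 3 each), a 2.56-fold higher mean in CD8SP. The log2 fold change was -1.33 (standard error 0.143, 95% interval -1.66 to -1.01, limma adjusted p = 0.000605), and it ran from -1.63 to -1.23 over the alternatives. Its end shares 1603 bases with Dcbld2 on the opposite strand, which was listed at 0.983, 0.103 and 0.556 TPM in CD4SP iT cells, against 1.32, 1.57 and 1.95 TPM in CD8SP. NK cell markers, some of which CD8 T cells also express, moved the same way: the sum of 5 was 88.5 to 90.7 TPM in CD4SP iT cells, against 463.2 to 527.2 TPM in CD8SP, with Ncr1 and Klra8 listed at 0 in all libraries. The part of NK cells in the level of St3gal6 was not tested.

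St3gal4, the other α2,3-sialyltransferase of selectin ligands, was at 40.01, 29.6 and 38.04 TPM in CD4SP iT cells, against 45.4, 42.7 and 34.6 TPM in CD8SP (chromosome 9, 35046576 to 35119268, minus strand). These ranges overlapped. The log2 fold change was -0.19 (standard error 0.175, 95% interval -0.59 to 0.21, limma adjusted p = 0.464). With median-of-ratios scaling the value was -0.49 and the adjusted p 0.0324. The gene overlaps 4930581F22Rik on the opposite strand, listed at 7.01 to 11.6 TPM.

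The sialyltransferases were also compared as a sum and as shares of that sum. The 5 members together summed to 148.1, 133.9 and 148.9 TPM in CD4SP and to 150.8, 152.9 and 133.3 TPM in CD8SP. These sums overlapped, with means of 143.6 ± 8.40 and 145.7 ± 10.7 TPM (two-sided exact permutation test, p = 0.6). The sum depends on the scaling between libraries: with median-of-ratios scaling, an alternative chosen after seeing the data, it was 124.6 to 133.6 in CD4SP and 156.0 to 162.3 in CD8SP, and the populations no longer overlapped (exact permutation test, p = 0.1, the smallest possible). In TPM as deposited, the St3gal members alone summed to 103.5, 96.6 and 108.1 in CD4SP and 143.7, 144.6 and 125.0 in CD8SP. These sums without St6gal1 did not overlap (two-sided exact permutation test, p = 0.1). In shares and ratios within a library the scaling cancels. St3gal6 made up 19.6, 26.2 and 24.6% of the summed TPM in CD4SP iT cells, against 58.0, 58.8 and 59.9% in CD8SP. St6gal1 made up 30.1, 27.9 and 27.4% in CD4SP and 4.77, 5.38 and 6.24% in CD8SP. The share of neither enzyme overlapped between the populations. St3gal1 took 16.8 to 18.4% in CD4SP and 6.36 to 7.64% in CD8SP, and St3gal2 took 5.21 to 6.55% and 0.217 to 1.50%. The St3gal4 share was 24.9 ± 2.55% and 28.0 ± 2.08% (n = 3 each, exact permutation test, p = 0.2) and overlapped. For the St3gal6 and St6gal1 shares the two-sided exact permutation p was 0.1, the smallest that 3 against 3 libraries can give. The ratio of St6gal1 to St3gal6 TPM was 1.54, 1.07 and 1.11 in CD4SP and 0.0821, 0.0914 and 0.104 in CD8SP, so St6gal1 was at or above St3gal6 in each CD4SP library and far below it in each CD8SP library. These libraries are bulk RNA of sorted cells, so fewer cells that express a gene and less RNA per cell cannot be told apart.

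**Figure D2:**
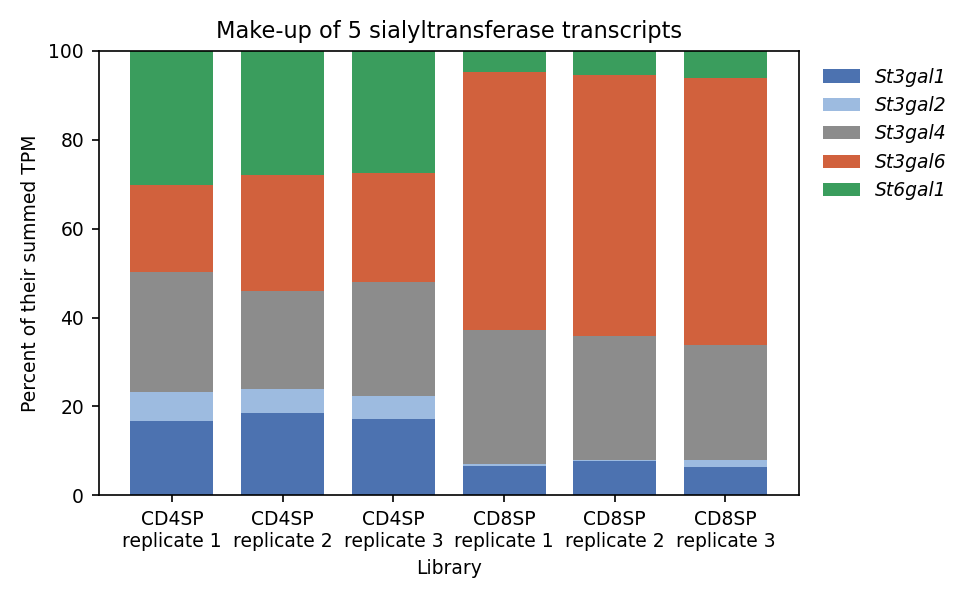
Share in percent of the summed TPM of the 5 sialyltransferase members that each one makes up, by library. St3gal6 takes 58.0 to 59.9% in CD8SP and 19.6 to 26.2% in CD4SP, and St6gal1 takes 4.77 to 6.24% and 27.4 to 30.1%.

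The next members branch and extend the chain. Gcnt1 starts the core 2 branch of O-glycans on which the selectin ligand of leukocytes is built (chromosome 19, 17326141 to 17372844, minus strand). It was listed at 5.84, 4.50 and 5.79 TPM in CD4SP iT cells, against 1.52, 1.64 and 1.35 TPM in CD8SP iT cells. No value of one population reached the other. The means were 5.38 ± 0.758 TPM and 1.50 ± 0.150 TPM (n = 3 each), a ratio of 3.58, with a log2 fold change of 1.34 (standard error 0.235, 95% interval 0.81 to 1.88, limma adjusted p = 0.00598). Under quantile normalization the value was 0.97 and no longer more than 2-fold. The ratio of Gcnt1 to St3gal1 TPM, the enzymes that share an acceptor, was 0.236, 0.182 and 0.226 in CD4SP and 0.153, 0.141 and 0.159 in CD8SP.

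Gcnt2, which adds the I branch to lactosamine chains, was listed at 2.07, 0.899 and 2.30 TPM in CD4SP iT cells, against 0.259, 0.188 and 0 TPM in CD8SP (chromosome 13, 40859754 to 40960892, plus strand). Each CD4SP value lay above each CD8SP value, all of them low (exact permutation test, two-sided, p = 0.1, the smallest possible). In the fit without the filter the log2 fold change was 1.23 (standard error 0.250, limma adjusted p = 0.0203). The gene shares 224 bases with A730081D07Rik on the opposite strand, which had no entry in the table.

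B4galt1 adds the galactose that later receives sialic acid (chromosome 4, 40804602 to 40854005, minus strand). It was the second most abundant member of CD4SP iT cells, at 91.3, 95.4 and 107.3 TPM, and was at 81.2, 84.3 and 87.9 TPM in CD8SP. The CD4SP libraries were all higher by a small margin, with a log2 fold change of 0.21 (standard error 0.122, 95% interval -0.068 to 0.49, limma adjusted p = 0.245), and the sign turned to -0.095 with median-of-ratios scaling and to -0.031 with quantile normalization.

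Fut7 adds the last fucose of sialyl Lewis x (chromosome 2, 25423267 to 25426374, plus strand). It was at 19.5, 18.03 and 21.2 TPM in CD4SP iT cells, against 15.3, 14.1 and 12.2 TPM in CD8SP. The libraries did not overlap, but the log2 fold change of 0.47 (standard error 0.172, 95% interval 0.079 to 0.86) did not pass the adjusted p (limma, 0.0843, unadjusted 0.0239). Without CD4SP replicate 2 the adjusted p was 0.0459, and over the 15 alternatives it ran up to 0.587. The fold change was 0.18 with median-of-ratios scaling, 0.13 with quantile normalization and 0.33 once ribosomal protein genes were left out.

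Selplg encodes PSGL-1, the protein that carries the O-glycans bound by P-selectin (chromosome 5, 113818536 to 113832644, minus strand). With 829.5, 635.7 and 660.2 TPM in CD4SP iT cells, against 898.0, 901.4 and 763.3 TPM in CD8SP it was the most abundant member in every library. The ranges overlapped, and the log2 fold change was -0.28 (standard error 0.134, 95% interval -0.58 to 0.030, limma adjusted p = 0.172). With median-of-ratios scaling it was -0.58 with an adjusted p of 0.0127, and with ribosomal protein genes removed -0.43 with 0.040. Ribosomal protein genes made up 24.1 to 28.8% of TPM in CD4SP iT cells, against 32.0 to 35.7% in CD8SP, and so moved with the populations.

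**Figure D3:**
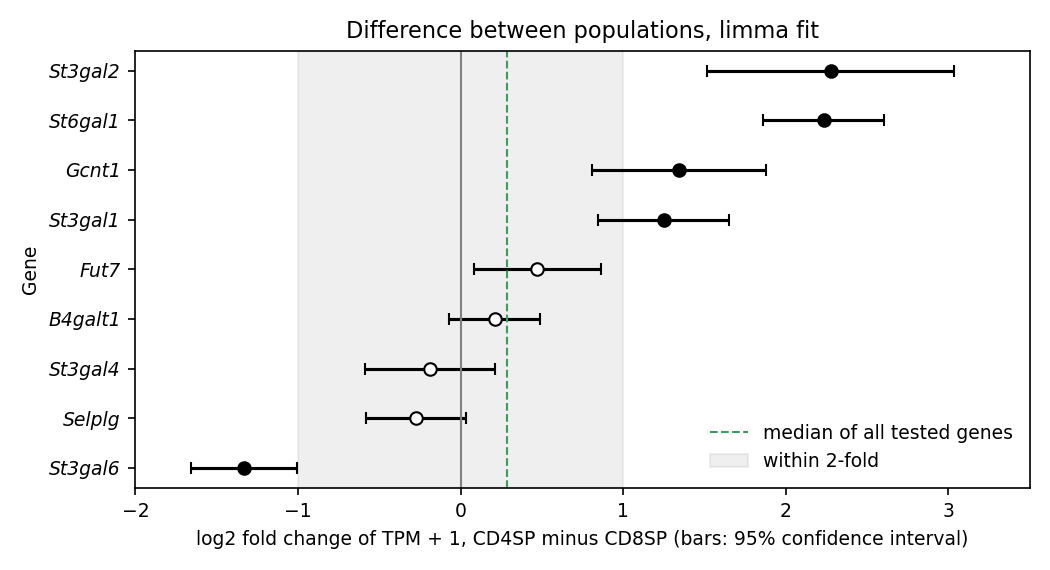
Log2 fold change (CD4SP minus CD8SP, on the log2(TPM + 1) scale) of the 9 members tested, with 95% intervals from limma, filled points for called genes, shading for less than 2-fold and a dashed line at the median of all tested genes (0.28). The intervals of St6gal1, St3gal2, Gcnt1 and St3gal1 lie above 0 and that of St3gal6 below 0.

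TPM is scaled by transcript length, so the levels of members could be ordered within a population. In CD4SP the order was Selplg, B4galt1, St6gal1, St3gal4, St3gal6, St3gal1, Fut7, St3gal2, Gcnt1 and Gcnt2, and the ranges of the neighbours St6gal1 and St3gal4, and of St3gal4 and St3gal6, overlapped. In CD8SP it was Selplg, St3gal6, B4galt1, St3gal4, Fut7, St3gal1, St6gal1, Gcnt1, St3gal2 and Gcnt2, and St3gal6 and B4galt1, as well as Gcnt1 and St3gal2, overlapped. St6gal1 thus stood at place 3 in CD4SP and place 7 in CD8SP, and St3gal6 at places 5 and 2.

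The members were set beside 100 other genes of the same pathways, in 8 lists. Of 68 tested, 13 were called (19.1%), 12 of them towards CD4SP and 1 towards CD8SP, beside 9.73% of all genes (7.92% and 1.8% by direction). Of the 68, 8 did not reach 1 TPM in all 3 libraries of both populations, so their passing the filter rested at least in part on the population where they are high, and 6 of these 8 were among the 13. The other 60 genes held 7 called (11.7%), 6 towards CD4SP and 1 towards CD8SP. Under the same restriction 7.42% of all genes were called. The counts are thus a description, and nothing about the lists is read from them. The median log2 fold change of the 68 was 0.29. With median-of-ratios scaling or quantile normalization 9 were called, 7 towards CD4SP and 2 towards CD8SP. Without CD4SP replicate 3 the count of 13 was 8, as it was with a filter at 5 TPM. Among the other sialyltransferases only 3 reached 1 TPM in all 6 libraries, and of these St8sia4 was called, higher in CD4SP (log2 fold change 1.07, limma adjusted p = 0.00378). It lost its call in 5 of 15 alternatives, at 0.77 with median-of-ratios scaling, 0.74 with quantile normalization, 0.93 once ribosomal protein genes were left out, 0.99 without CD4SP replicate 3 and 0.98 without CD8SP replicate 1. St6galnac1, which adds α2,6-linked sialic acid to O-glycans, was at 15.0, 11.1 and 9.52 TPM in CD4SP and was listed at 0 in all 3 CD8SP libraries. St6galnac2 was at 10.2, 4.83 and 9.21 TPM against 0.319, 0 and 2.52 TPM. The ganglioside enzyme St8sia1 was at 5.61, 4.17 and 5.82 TPM against 0.888, 0.809 and 0.869 TPM. St8sia6 was at 1.2998, 2.08 and 2.50 TPM in CD4SP and listed at 0 in CD8SP. These 4 genes passed the filter through their CD4SP libraries, so their values are given without a test.

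The list counts that follow stand beside 9.73% called of all genes tested. In the fucosylation list 0 of 9 tested genes were called by limma, as were 0 of 8 in the N-glycan list. In these lists 2 and 1 were at an unadjusted p under 0.05 (limma). For O-glycan synthesis it was 2 of 18, B3gnt2 and B4galt4, which extend lactosamine. B3gnt2 was higher in CD4SP (log2 fold change 1.03, limma adjusted p = 0.00168) and lost its call in 4 of 15 alternatives, at 0.73 with median-of-ratios, 0.76 with quantile normalization, 0.89 once ribosomal protein genes were left out and 0.98 without CD4SP replicate 3. B4galt4 was at 11.5, 4.85 and 7.26 TPM in CD4SP against 3.56, 2.03 and 0.935 TPM in CD8SP. It did not reach 1 TPM in every CD8SP library, and it lost its call in 7 of 14 alternatives. The sialidase Neu3 was the only one of 7 called in the list of sialic acid synthesis, transport and removal (1.13, limma adjusted p = 0.00585), and it fell below 2-fold with median-of-ratios (0.86) and quantile normalization (0.75). Chst2, a sulfotransferase of selectin ligands, was the only one of 6 sulfation genes called, at 10.3, 8.92 and 8.34 TPM in CD4SP iT cells, against 2.09, 2.39 and 2.40 TPM in CD8SP (1.63, limma adjusted p = 0.00161). Of the selectins and carrier proteins 1 of 6 was called, Cd44, a glycoprotein that binds hyaluronan and carries E-selectin ligands (1.15, limma adjusted p = 0.00157), and it fell below 2-fold with median-of-ratios (0.84), with quantile normalization (0.89) and once ribosomal protein genes were left out (0.996). The carrier Spn (CD43) passed the adjusted p but not the fold, at 203.2, 174.3 and 209.9 TPM in CD4SP iT cells, against 119.6, 119.1 and 106.3 TPM in CD8SP (0.76, limma adjusted p = 0.00429).

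**Figure D4:**
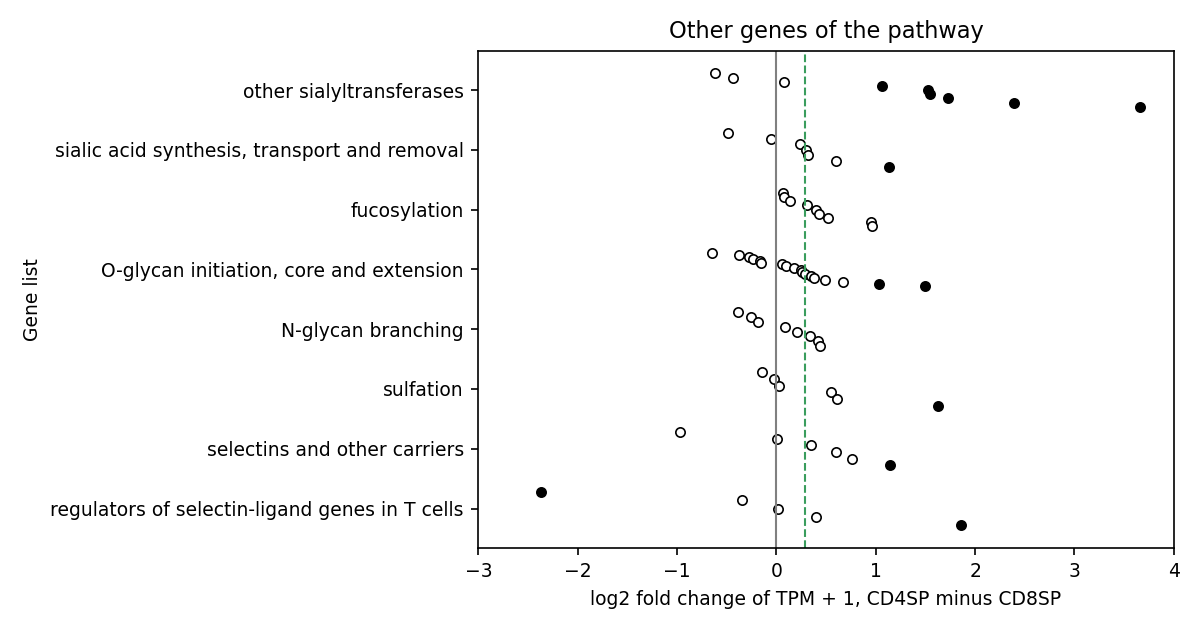
Log2 fold change (CD4SP minus CD8SP, log2(TPM + 1) scale) of the tested genes of the 8 pathway lists, one point per gene, filled if called, with a dashed line at the median of all tested genes (0.28). In the list of other sialyltransferases 6 of 9 genes are filled, beside 9.73% called of all genes tested. Of these 6 genes 5 passed the filter on low values through CD4SP.

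Transcription factors known to regulate selectin-ligand genes in T cells were examined as a last list of 5. Gata3 was at 61.6, 72.7 and 67.0 TPM in CD4SP iT cells, against 20.7, 19.4 and 13.7 TPM in CD8SP (1.86, limma adjusted p = 0.00038). Eomes was higher in CD8SP, at 51.4, 55.4 and 49.9 TPM against 10.6, 9.20 and 8.19 TPM (-2.37, limma adjusted p = 5.5e-05). Tbx21, which is known to activate Fut7 and Gcnt1 in T cells, was at 11.5, 12.5 and 8.23 TPM in CD4SP iT cells, against 9.997, 9.11 and 12.4 TPM in CD8SP, with overlapping ranges (0.02, standard error 0.222, limma adjusted p = 0.956). The relation of these factors to the members was not tested.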

How the data were processed

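RNA was sequenced from 3 CD4SP and 3 CD8SP iT cell libraries. The authors amplified cDNA from the sorted cells, aligned the reads with HISAT2 to mm10 and deposited StringTie TPM values. The table keeps no read counts, so depth is unknown and no counting interval is given. Whether strand was used is not given in the sources used here. The study's own test needs counts, so log2(TPM + 1) was tested with limma 3.58.1 (R 4.3.3, empirical Bayes with trend) over the 10476 genes at 1 TPM or more in at least 3 libraries, with Benjamini-Hochberg adjustment over all of them. A call needed an adjusted p under 0.05 and more than 2-fold. Single ratios and shares were tested by exact permutation of libraries. The procedure was tested on simulated data. The members and lists were chosen with earlier results of these data known. Named genes are all members, up to 4 called genes a list by size of change, and Tbx21, Eomes, Spn and St8sia4. St8sia4 was added outside that order, as the called gene of its list at 1 TPM or more in all 6 libraries. A further gene that the rule names is not reported here. Marker lists covered T, B, myeloid, NK, erythroid, and platelet and endothelial cells. Positions follow GENCODE M21. Date-like names numbered 27, and 9818 entries were 0 in all libraries. The 15 alternatives covered pseudocount, filter, scaling, variance trend, replicate block, averaging of CD8SP replicates 1 and 2, and omission of each library. Median-of-ratios scaling of the summed sialyltransferases was added after seeing the data.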

Additional observations from a re-analysis of the deposited data

How the results depend on the processing

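St6gal1 and St3gal6 kept their calls in all 15 alternatives, St3gal1 in 13 of 15 and Gcnt1 in 13 of 14. St3gal2 also kept its call in all 15, but it passed the filter on low values through CD4SP, so this is no support for it. Members called numbered 5, and 3 with quantile normalization; leaving out each library gave 5. Other pathway genes called numbered 13, and 8 with a 5 TPM filter; leaving out single libraries gave 8 to 13, the 8 being without CD4SP replicate 3. Reversed values were B4galt1 at -0.095 (median-of-ratios) and -0.031 (quantile), and Tbx21 at -0.26 (median-of-ratios), -0.34 (quantile), -0.13 (ribosomal protein genes removed), -0.038 (CD8SP replicates 1 and 2 averaged) and -0.091 to 0.18 (single libraries left out). The cause was not tested. Same-numbered libraries did not deviate together (correlations -0.017 to 0.089; 3 of 6 libraries correlated best with their own number). With the replicate block 5 members and 13 other pathway genes were called, and 997 of all genes instead of 1019. TPM holds no depth, so levels near 1 TPM are the least certain.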
